A study of Homo sapiens with 6 samples.

Results

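Zinc, copper and iron are cofactors that cells need and cannot tolerate in excess, so uptake carriers, export carriers, chaperones, storage proteins and sensors hold each metal within narrow limits. Zinc leaves the cytosol through the SLC30 (ZnT) family and enters it through the SLC39 (ZIP) family, and the zinc-sensing factor MTF1 acts on metal response elements in promoters. Copper is taken up by CTR transporters, handed on by chaperones and pumped by the ATPases ATP7A and ATP7B. Iron enters bound to transferrin, is stored in ferritin and leaves through ferroportin, and iron regulatory proteins that bind iron-responsive elements in messenger RNA adjust these steps.

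The 50 genes described here are a fixed list of these families: MTF1, 10 zinc exporters, 14 zinc importers, 6 copper genes and 19 iron genes, chosen by name, although with earlier results of these data known. Of them 48 were measured, out of 18417 genes in all, each through its brightest probe set that names no other gene. FTH1, the ferritin heavy chain, and IREB2, an iron regulatory protein, have no array values used here. The genes were measured in A204, an established human rhabdoid tumour line, in 3 arrays of cells given the histone deacetylase inhibitor SAHA (vorinostat) for 12 h and 3 arrays of control cells. The control cells received DMSO by the treatment protocol, whereas their treatment label says none. All groups share the medium, DMEM with bovine serum, and the unit of the SAHA dose is incomplete in the labels, so no dose is given. Whether replicate arrays stand for separate cultures is not stated, so p-values reflect the array-to-array spread alone, which may be technical.

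Levels are RMA signals on the log2 scale, where a difference of 1 is 2-fold, and changes are SAHA minus control. A gene rose or fell where its limma adjusted p, over all genes, was under 0.05. By that rule 31.1% of all genes rose and 28.9% fell. Array medians lay between 142 and 149 on the linear scale, and levels correlated at 0.9975 to 0.9988 within groups and 0.9530 to 0.9536 between them (Pearson, across genes, which are not independent). With a cell line in bulk, fewer cells with a transcript and less of it per cell cannot be told apart. VIM, the mesenchymal intermediate filament, was at 12.81 ± 0.03 in control and 12.63 ± 0.02 in SAHA (SD, n = 3), and SMARCB1, whose loss is typical of rhabdoid tumours, at 7.74 ± 0.04 and 7.22 ± 0.05. The mean level of 8 mesenchymal markers was 8.28 to 8.36 in control and 8.95 to 9.01 in SAHA arrays, and that of 8 skeletal muscle markers 6.58 to 6.63 and 6.68 to 6.72. That of 10 hepatocyte markers was 5.24 to 5.29 in control and 5.23 to 5.24 in SAHA, that of 7 erythroid markers 6.65 to 6.73 and 6.56 to 6.64, and that of 8 macrophage markers 6.34 to 6.50 and 6.42 to 6.43. The mesenchymal markers did not share a direction: 4 rose, FN1 (3.25) and COL1A2 (1.39) most, VIM and COL3A1 fell and 2 were not called. The erythroid list includes TFR2, which is also described below and fell, while differences of its 6 other genes lay between -0.07 and 0.17, and KLF1 (0.17) alone of these passed the test. No detection call was used, so dim signal cannot be told from background.

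The promoter stretches that carry the metal response core are shown first, because SLC30A1 and the metallothionein MT1X are textbook targets of MTF1 and because SLC30A3, SLC40A1, ATOX1 and CCS rose in SAHA. Stretches of members that fell or were not called are not shown, although SLC39A1, SLC39A10 and STEAP2, which fell, hold the core too. Capitals mark each match to TGCACNC or TGCGCNC on either strand. Each stretch runs 5′ to 3′ on the gene's own strand and ends before the annotated start (RefSeq, GRCh38.p14).
MT1X, chr16:56682300-56682449, plus strand: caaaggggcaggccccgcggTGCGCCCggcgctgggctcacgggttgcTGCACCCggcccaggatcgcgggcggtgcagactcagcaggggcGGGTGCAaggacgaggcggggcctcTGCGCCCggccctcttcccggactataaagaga
SLC30A1, chr1:211579162-211579281, minus strand: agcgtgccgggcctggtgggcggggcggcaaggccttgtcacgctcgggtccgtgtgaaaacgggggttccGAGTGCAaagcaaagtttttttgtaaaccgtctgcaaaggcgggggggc
SLC30A3, chr2:27275347-27275476, minus strand: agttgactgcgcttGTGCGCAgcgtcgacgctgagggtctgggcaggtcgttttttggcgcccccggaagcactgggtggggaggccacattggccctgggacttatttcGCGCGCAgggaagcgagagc
SLC40A1, chr2:189580907-189580986, minus strand: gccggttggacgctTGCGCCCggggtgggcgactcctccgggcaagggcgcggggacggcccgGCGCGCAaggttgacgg
ATOX1, chr5:151758632-151758691, minus strand: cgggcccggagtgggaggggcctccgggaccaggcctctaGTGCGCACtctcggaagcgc
CCS, chr11:66593115-66593184, plus strand: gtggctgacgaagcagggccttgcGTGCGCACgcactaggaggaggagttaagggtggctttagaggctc

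MT1X holds 4 such matches, SLC30A3 and SLC40A1 hold 2 each, and the 2 matches of ATOX1 and of CCS overlap, as the core reads on both strands there. The SLC30A1 stretch holds 1, at base -49, and a second match lies at base 25 after the start. Ferritin light chain is regulated at the messenger, so the stretch shown for FTL lies after its start, from base 21 to base 50, with the loop of the iron-responsive element (CAGTGN) in capitals.
FTL, chr19:48965329-48965358, plus strand: gtctgtctcttgcttcaaCAGTGTttggac

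Over 300-base windows from 250 before to 50 after the start, 22 of 43 member genes with a listed promoter held the metal response core in at least 1 of their promoters (51.2%), against 41.2% of 14239 tested genes. The 43 include IREB2, which has the core but no array values used here, so the split by call covers the other 42. Of all 35116 promoters 29.6% held it. Of the members that rose 12 of 21 held it, of those that fell 3 of 5, and of those without a call 6 of 16. Over all tested genes these shares were 43.8%, 44.7% and 36.3%. The antioxidant response core TGACNNNGC, on either strand, was in 14 of 43 members (32.6%), SLC30A1, SLC30A3 and CCS among them, against 18.3% of tested genes and 13.3% of all promoters. The shorter words ACGTG (hypoxia response core), CACGTG (E-box, which contains the former) and TATAAA were in 15, 4 and 3 of 43 members and in 28.9%, 10.9% and 11.9% of tested genes. CAGTGN in the 50 bases after the start (sense strand only) was in FTL, NCOA4 and HAMP, 7.0% of members against 8.0% of tested genes. Elements further along a messenger lay outside this search. A match is a description of letters and says nothing about binding, and promoters rich in G and C hold several of these words more often.

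Of the 48 measured genes 22 rose, 6 fell and 20 were not called, so 45.8% rose against 31.1% of all genes and 12.5% fell against 28.9%. The median change was 0.11 against -0.0027 over all genes. Changes of at least 2-fold that passed the test were those of FTL, SLC40A1, SLC39A2 and SLC30A3, all rises, where 5.84% of all genes rose and 5.42% fell by as much. The 3 SAHA arrays lay above all control arrays for 25 members and below them for 7, against 33.8% and 31.6% of all genes. By group, 6 of 10 zinc exporters, 4 of 14 zinc importers, 5 of 6 copper genes and 6 of 17 iron genes rose, and 0, 3, 0 and 3 of them fell (limma). At an unadjusted p under 0.05 the number that fell was also 0 among exporters and copper genes, as with the ordinary unmoderated model. Most scalings tried kept the member counts nearly the same, but centring on housekeeping levels did not. After a further quantile normalization 24 members rose and 8 fell, and after cyclic loess scaling 22 and 6. With arrays centred on the median of all genes it was 22 and 5. With arrays centred on the median level of 10 housekeeping genes, however, 16 members rose and 24 fell. Over all genes 2784 then rose and 12939 fell, in place of 5735 and 5314. That centring shifts every gene, the median of all genes moving to -0.34. The housekeeping genes' own changes had a median of 0.02. With arrays centred on the median deviation of these genes, chosen after seeing the data, 22 members rose and 7 fell. Under the level centring SLC30A1, SLC30A10, TFRC and NCOA4 lost their calls and SLC30A9 and SLC39A3 turned to -0.16 and -0.02. FTL, SLC40A1, MTF1, SLC30A3 and SLC39A2 still rose under it.

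**Figure D1:**
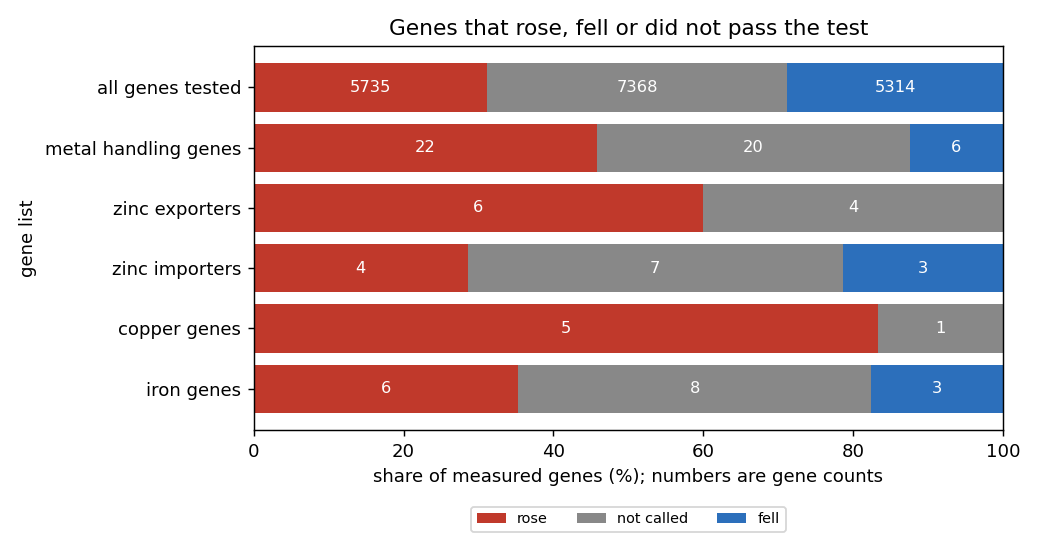
Share of measured genes (horizontal axis, percent) that rose, were not called or fell in SAHA, for all genes, the 48 metal handling genes and 4 groups of them, with gene counts in the bars. Zinc exporters (6 of 10) and copper genes (5 of 6) have the largest shares of rises and hold no falls. With arrays centred on housekeeping levels 4 exporters and 1 copper gene fell, against 12939 of all 18417 genes.

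MTF1, which senses free zinc and switches on metallothioneins and SLC30A1, rose from 10.15 ± 0.04 to 11.15 ± 0.05 (SD, n = 3), about 2-fold. Its levels were 10.20, 10.12 and 10.13 on the control arrays and 11.17, 11.19 and 11.09 on the SAHA arrays. The groups did not overlap, and the 95% interval of the change was 0.89 to 1.11 (adjusted p = 6.24e-07). Among the metallothioneins, small proteins that bind zinc and copper, 9 of 10 measured genes rose (90%, against 31.1% of all genes). None fell (0 also at an unadjusted p under 0.05, limma), against 28.9% of all genes, and the median change was 1.10. With the housekeeping centring 8 rose, where 2784 of all 18417 genes rose. MT1F changed by 2.85 and MT1X by 2.54, although close copies could share signal between their probes.

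Zinc exporters carry zinc out of the cytosol, either across the plasma membrane or into vesicles and the Golgi. Of the 10, 6 rose (60%, against 31.1% of all genes) and none fell (against 28.9%), with a median change of 0.29. With arrays centred on housekeeping levels, however, 3 rose and 4 fell, where 2784 and 12939 of all 18417 genes did. SLC30A1, the ZnT1 exporter of the plasma membrane, was at 9.69, 9.59 and 9.57 in control and at 10.00, 10.04 and 10.00 in SAHA. The SAHA arrays were all higher, by 0.40 ± 0.05 (SE, 1.32-fold, adjusted p = 0.000128). SLC30A3, the ZnT3 carrier that loads zinc into synaptic vesicles, had the largest rise of the group. Its control arrays read 7.85, 7.53 and 7.82 and its SAHA arrays 8.81, 8.85 and 8.73, with the second control array lowest. The change was 1.06 ± 0.09 (SE, 2.09-fold, adjusted p = 1.3e-05).

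SLC30A4, a vesicular exporter known from lactating breast, rose from 9.31 ± 0.05 to 10.01 ± 0.06 (SD, n = 3). SLC30A7, which supplies zinc to the Golgi, rose from 11.19 ± 0.05 to 11.72 ± 0.01. SLC30A10, by its family a zinc exporter but known mainly for exporting manganese, rose by 0.54 from a dim control level of 5.81 ± 0.13. SLC30A9, a mitochondrial member, rose by 0.18 with its groups just apart, 11.12 to 11.32 in control and 11.39 to 11.44 in SAHA. Its adjusted p of 0.0264 rose above 0.05 with control replicate 2 left out (0.0524), with SAHA replicate 1, 2 or 3 left out (0.0502, 0.0719 and 0.0768), and with the ordinary unmoderated model (0.0699).

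SLC30A5 and SLC30A6, which form a Golgi exporter together, were at 0.05 and -0.02, and their partner in supplying the secretory pathway, SLC30A7, was the one that rose. The 95% interval of the change was -0.05 to 0.14 for SLC30A5 and -0.15 to 0.11 for SLC30A6. SLC30A8, the exporter of insulin granules, was dim in both groups, at 4.83 ± 0.05 and 4.82 ± 0.05. SLC30A2, a lysosomal and vesicular exporter, was at 0.14 (adjusted p = 0.097).

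Zinc importers bring zinc into the cytosol, from outside or from organelles. Of the 14, 4 rose (28.6%, against 31.1% of all genes), 3 fell (21.4%, against 28.9%) and 7 were not called. Their median change was 0.03, and 10 fell with arrays centred on housekeeping levels, where 12939 of all 18417 genes fell. SLC39A2, the ZIP2 importer, had the largest rise among the zinc carriers. It read 5.09, 5.09 and 4.92 in control and 6.25, 6.31 and 6.23 in SAHA. The change was 1.23 ± 0.06 (SE, 2.34-fold, adjusted p = 7.12e-07), from a dim level that may hold background, in which case the fold is a lower bound.

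SLC39A8, an importer of zinc, manganese and iron, rose from 7.94 ± 0.12 to 8.69 ± 0.04 (SD, n = 3). SLC39A9, which has been tied to the Golgi and plasma membrane, rose from 11.46 ± 0.03 to 12.00 ± 0.02, and SLC39A3, a plasma membrane importer, by 0.32. The falls were those of SLC39A1, SLC39A10 and SLC39A11. SLC39A11, the ZIP11 carrier, read 9.26, 9.33 and 9.37 in control and 8.76, 8.63 and 8.80 in SAHA, without overlap. It was the largest fall among the 24 zinc carriers, -0.59 ± 0.06 (SE, 1.51-fold lower, adjusted p = 4.28e-05). SLC39A10, a plasma membrane importer, went from 10.43 ± 0.14 to 9.95 ± 0.07. SLC39A1, the broadly expressed ZIP1, went from 11.20 ± 0.01 to 10.80 ± 0.04.

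The 7 importers without a call had changes between -0.05 and 0.06, and their 95% intervals stayed within -0.17 and 0.17. Among them were SLC39A7, which releases zinc from the endoplasmic reticulum (0.05, the same for its 3 probe sets), SLC39A14, which also imports iron (0.06), and SLC39A4, the intestinal importer (-0.03). SLC39A6 was at 0.02, SLC39A13 at 0.05, SLC39A5 at -0.05 and SLC39A12, dim in both groups, at -0.02.

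**Figure D2:**
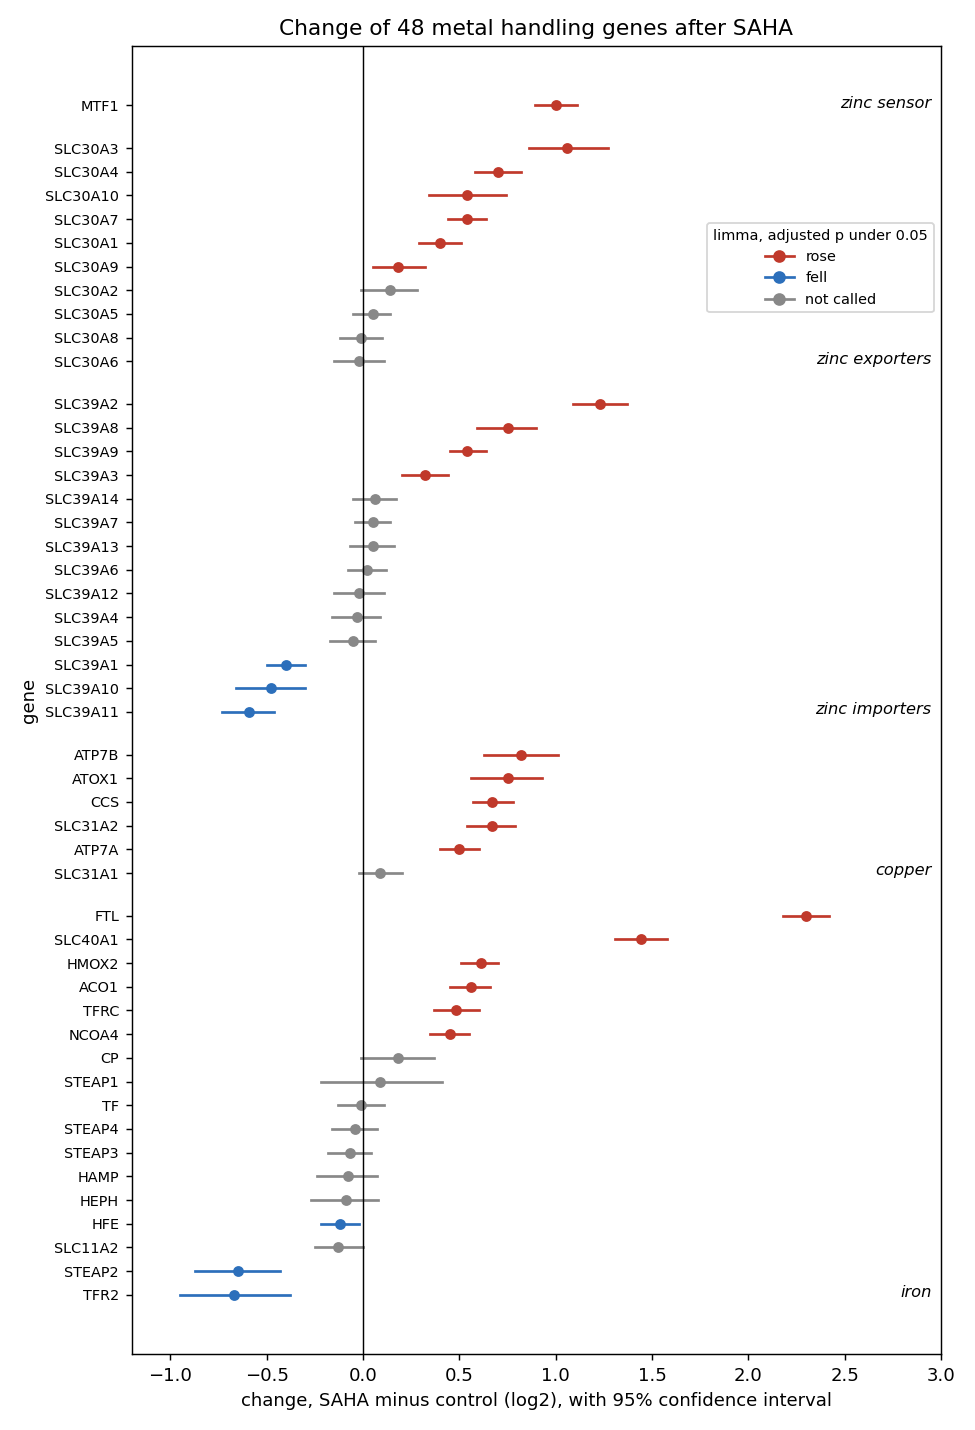
Change of each of the 48 measured genes (SAHA minus control, log2, points) with its 95% confidence interval (lines), grouped by role and coloured by call. FTL (2.30) and SLC40A1 (1.44) lie farthest to the right, no change lies below -0.67, and housekeeping centring, which lowers every change by about 0.34, turns 11 of the smaller changes below zero, among them the called rises of SLC30A9 and SLC39A3.

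Of 6 copper genes 5 rose (83.3%, against 31.1% of all genes) and none fell (against 28.9%). Their median change was 0.67 against -0.0027 over all genes. With arrays centred on housekeeping levels 1 fell, where 12939 of all 18417 genes fell. In all 6 the SAHA arrays lay above the control arrays, as they did for 33.8% of all genes. The exception to the rises was SLC31A1, the high-affinity copper importer CTR1. It read 11.93, 11.82 and 11.94 in control and 11.97, 12.00 and 11.97 in SAHA, a change of 0.09 with a 95% interval of -0.02 to 0.20 (adjusted p = 0.151, and 0.0488 with eBayes trend and robust options). With the housekeeping centring it was at -0.25. SLC31A2, its endosomal relative, rose from 10.23 ± 0.08 to 10.90 ± 0.04 (SD, n = 3). The 2 genes lie close to each other on chromosome 9, with 1 protein-coding gene between them in the RefSeq order.

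The copper pumps ATP7A and ATP7B, mutated in Menkes and Wilson disease, move copper into the secretory pathway and out of the cell. ATP7A read 9.78, 9.79 and 9.86 in control and 10.34, 10.28 and 10.32 in SAHA, a rise of 0.50 ± 0.04 (SE, 1.42-fold, adjusted p = 2.16e-05). ATP7B read 8.42, 8.46 and 8.21 in control and 9.29, 9.07 and 9.20 in SAHA. It rose by 0.82 ± 0.08 (SE, 1.77-fold, adjusted p = 4.53e-05), the largest rise among the copper genes. Whether the changes of the 2 pumps differ was not tested.

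Both copper chaperones rose. ATOX1, which delivers copper to these pumps, went from 9.62 ± 0.15 to 10.36 ± 0.07 (SD, n = 3, 1.68-fold). CCS, which loads copper into superoxide dismutase, went from 9.16 ± 0.04 to 9.83 ± 0.04 (1.60-fold). Of 16 measured genes that use or bind copper downstream, 3 rose (18.8%), 2 fell (12.5%) and 11 were not called, with a median of -0.03. Of all genes 31.1% rose and 28.9% fell. With the housekeeping centring 1 of the 16 rose and 13 fell, where 2784 and 12939 of all 18417 genes did. SOD1, the dismutase that CCS loads, was at 0.02 with a 95% interval of -0.08 to 0.12. LOXL2, a copper-dependent collagen crosslinking enzyme, rose by 0.69 and CUTA, a copper-binding protein, by 0.26. COMMD1, which takes part in trafficking of the copper pumps, changed by -0.27.

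**Figure D3:**
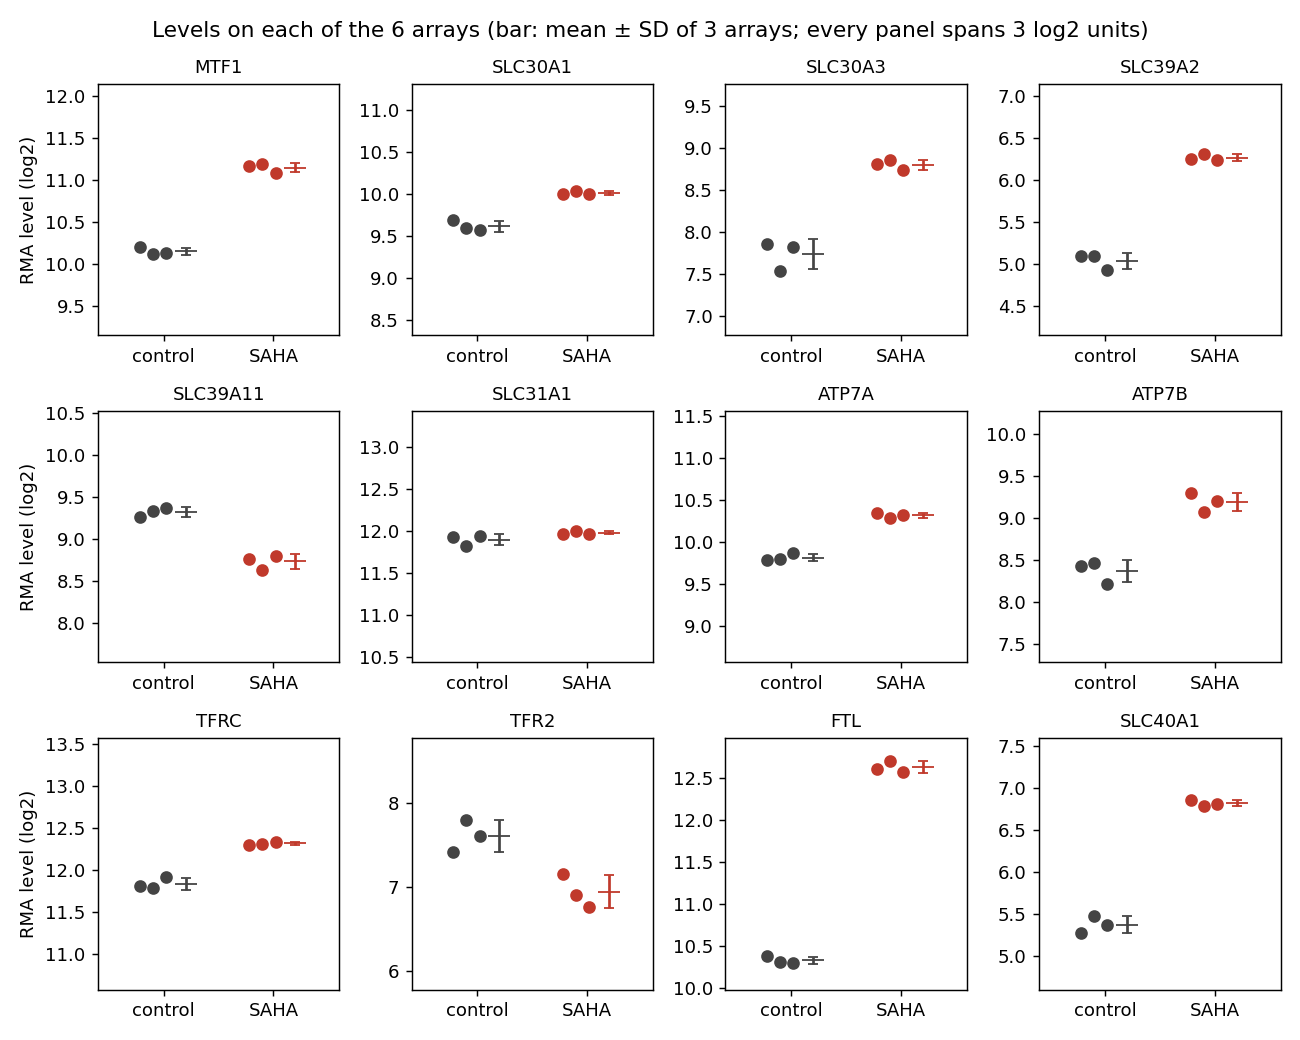
RMA level (log2) of 12 genes on each of the 3 control arrays and 3 SAHA arrays (points, drawn in no meaningful order) with the mean ± SD, every panel spanning the same range of log2 units. FTL, SLC40A1, SLC39A2, SLC30A3 and MTF1 show the widest gaps between groups, SLC39A11 and TFR2 are lower in SAHA, and SLC31A1 (11.89 against 11.98) differs least.

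Of 17 measured iron genes 6 rose (35.3%, against 31.1% of all genes), 3 fell (17.6%, against 28.9%) and 8 were not called. Their median change was -0.01, and 9 fell with arrays centred on housekeeping levels, where 12939 of all 18417 genes fell. The storage gene FTL, the ferritin light chain whose iron-responsive element is printed above, had the largest change of all 48 genes. Its levels were 10.38, 10.31 and 10.30 in control and 12.61, 12.71 and 12.58 in SAHA. The gap between the groups was many times their spread, a rise of 2.30 ± 0.05 (SE, 4.93-fold, adjusted p = 1.89e-08). FTL has processed copies elsewhere in the genome that could share its probes. NCOA4, the receptor that carries ferritin to lysosomes for release of its iron, rose from 10.85 ± 0.04 to 11.30 ± 0.02 (SD, n = 3, 1.37-fold).

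SLC40A1 encodes ferroportin, the known exporter of iron from cells. It read 5.28, 5.48 and 5.37 in control and 6.86, 6.79 and 6.81 in SAHA. It rose by 1.44 ± 0.06 (SE, 2.72-fold, adjusted p = 2.83e-07) from a dim level that may hold background, in which case the fold is a lower bound. The ferroxidases that work beside ferroportin were dim and not called, CP (ceruloplasmin) at 3.99 ± 0.06 and 4.17 ± 0.16 and HEPH (hephaestin) at 5.01 ± 0.15 and 4.92 ± 0.01. HAMP, which encodes hepcidin, the hormone that degrades ferroportin, was at 7.13 ± 0.12 and 7.05 ± 0.05 and not called. Ferroportin and FTL are also abundant in macrophages. Of 8 macrophage markers 1 rose (CD68, by 1.55), 1 fell (CSF1R, by 1.63 on the log2 scale) and 6 were not called. That is 12.5% each way, against 31.1% and 28.9% of all genes. PTPRC, the pan-leukocyte marker CD45, was dim, at 4.05 ± 0.07 in control and 4.08 ± 0.12 in SAHA. Whether these markers bear on the rises of SLC40A1 and FTL was not tested.

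The uptake genes did not share a direction. TFRC, the transferrin receptor that most cells use, read 11.80, 11.78 and 11.91 in control and 12.30, 12.31 and 12.33 in SAHA. All SAHA arrays were higher, by 0.48 ± 0.05 (SE, 1.40-fold, adjusted p = 4.55e-05). TFR2, the receptor of liver and erythroid cells, read 7.42, 7.80 and 7.61 in control and 7.16, 6.91 and 6.77 in SAHA. Its groups were apart although each was spread widely, and it fell by 0.67 on the log2 scale (SE 0.12, 1.59-fold lower, adjusted p = 0.00157). SLC11A2, the endosomal iron carrier DMT1, was at -0.13 (adjusted p = 0.0792), with its SAHA arrays just below the control arrays. TF, transferrin itself, was dim at 5.12 ± 0.02 and 5.11 ± 0.08.

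The STEAP family includes proteins that reduce iron and copper for uptake. STEAP2 fell by 0.65 on the log2 scale, from 9.87 ± 0.20 to 9.22 ± 0.07 (SD, n = 3). STEAP3, the reductase of erythroid endosomes, was at -0.07 and STEAP4 was dim and at -0.04. STEAP1, the direct neighbour of STEAP2 on chromosome 7, read 7.31, 7.31 and 6.77 in control and 7.20, 7.21 and 7.24 in SAHA (chosen after its values were seen). The third control array alone was low, so the change of 0.09 had a 95% interval of -0.22 to 0.41 and turned to -0.09 without that array, without passing the test in either case.

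Among the regulators, ACO1, the cytosolic aconitase that doubles as iron regulatory protein and binds elements such as that of FTL, rose from 11.50 ± 0.06 to 12.06 ± 0.02 (SD, n = 3, 1.47-fold). HFE, the haemochromatosis gene, was dim and fell by 0.12 on the log2 scale at adjusted p = 0.0448. That call ended when any of the 6 arrays was left out (adjusted p from 0.0514 to 0.132) and with the replicate number as a block (0.0805). HMOX2, the constitutive haem oxygenase that frees iron from haem, rose from 10.42 ± 0.01 to 11.02 ± 0.04.

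Of 30 iron and haem genes measured outside the list, 12 fell (40%, against 28.9% of all genes) and 7 rose (23.3%, against 31.1%). Their median was -0.05. With the housekeeping centring 22 fell and 5 rose, where 12939 and 2784 of all 18417 genes did. The largest changes were rises. HMOX1, the inducible haem oxygenase, read 10.07, 10.06 and 10.09 in control and 12.87, 12.95 and 12.88 in SAHA, a change of 2.83 ± 0.04 (SE) beside the 0.61 of HMOX2. FLVCR2, a carrier first described for haem, rose by 1.38 and ALAD, an early enzyme of haem synthesis, by 1.27. Of 7 other zinc genes measured, 3 fell (42.9%, against 28.9% of all genes). With the housekeeping centring 6 fell, against 12939 of all 18417 genes. None rose (0 also at an unadjusted p under 0.05, limma), against 31.1% of all genes. S100A9, a subunit of the zinc-binding calprotectin, changed by -0.64, the zinc receptor gene GPR39 by -0.50 and the channel gene TRPM7 by -0.43.

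**Figure D4:**
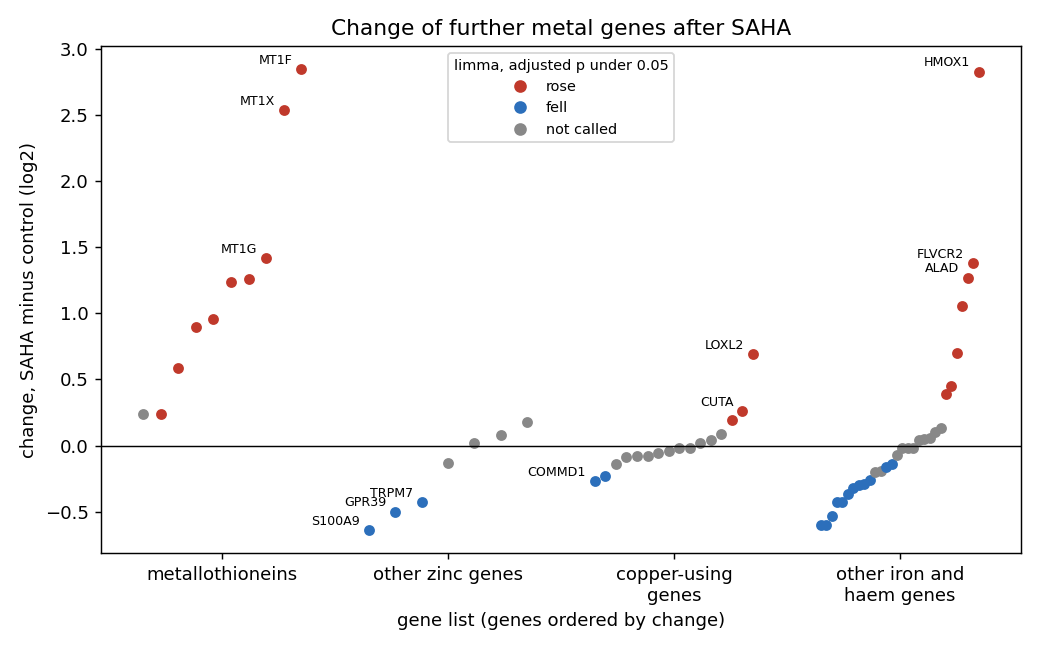
Change of metal genes outside the list of 50 (SAHA minus control, log2), in 4 gene lists, with genes ordered by change within a list and coloured by call. Metallothioneins lie at or above 0.24, and HMOX1 (2.83) stands highest among the iron and haem genes, of which 12 of 30 fell.

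By range, the members without a call had 95% intervals within -0.27 and 0.41, and 15 of the 48 genes were under the median level of all genes, 8.14. Of these dim members SLC39A2, SLC40A1 and SLC30A10 rose, TFR2 and HFE fell, and the other 10 were not called. With genes under that median left out, 19 of the 33 remaining members rose and 5 fell, against 3660 and 3993 of 9209 genes.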

How the data were processed

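Signal intensity values of 33252 probe sets on 6 arrays were deposited on a linear scale (6.56 to 20338) and had been made with RMA, which corrects background, equalises array distributions by quantiles and summarises probes, per the submitters' processing notes; its software and version are not given in the sources used. A shift of total RNA per cell is therefore invisible. Here log2 was taken before the test. Of the probe sets 19460 named exactly 1 gene in GEO's platform annotation, 1754 several and 12038 none. Of the 19460, 19429 took their symbol from a RefSeq table of GRCh38.p14, whether or not it differed. Each of 18417 genes took its probe set with the highest mean. SAHA was compared with control by limma 3.58.1 in R 4.3.3 (lmFit and eBayes, two-sided, group the only term), p-values being adjusted by Benjamini-Hochberg across all 18417 genes and called under 0.05; every adjusted p is from that fit unless an alternative is named. Precision is limited by the number of arrays. The fit was tested on simulated data in which far fewer genes changed than here, so that test does not cover calls made when most genes change. Lists are described by counts and medians, with no set test.

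Every measured member is named. Array values are given for fixed members, for 2-fold calls and for the largest called rise and fall of each group. From other lists up to 3 called genes with the largest changes are named (2 metallothioneins); other such genes were chosen for their roles. The members and lists were chosen with earlier results of these data known. Alternatives were other scalings, filters on dim genes, other probe set rules, other tests, the replicate block and leaving out each array.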

Additional observations from a re-analysis of the deposited data

How the results depend on the processing

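Of 19 alternatives, centring the arrays on the median level of the housekeeping list moved the counts most: 24 members fell, zinc exporters gave 3 rises and 4 falls, 10 zinc importers, 1 copper gene and 9 iron genes fell. Over all 18417 genes 12939 then fell. The middle of the housekeeping list falls between genes of different level, and its array median rose by 0.34 while its genes' own changes had a median of 0.02. With the median deviation of these genes in its place, chosen after seeing the data, 22 members rose and 7 fell. Under the level centring the sign turned for SLC30A2 (-0.20), SLC30A5 (-0.29), SLC30A9 (-0.16), SLC39A3 (-0.02), SLC39A6 (-0.32), SLC39A7 (-0.29), SLC39A13 (-0.29), SLC39A14 (-0.28), SLC31A1 (-0.25), STEAP1 (-0.25) and CP (-0.16). After a further quantile normalization it turned for SLC30A6 (0.01), SLC39A12 (0.00), STEAP1 (-0.02) and STEAP3 (0.00), none of them called, and the cause was not tested. With arrays left out in turn, changes ran from -0.07 to 0.02 for SLC30A6, -0.04 to 0.02 for SLC30A8, -0.07 to 0.00 for SLC39A4, -0.05 to 0.03 for SLC39A12, -0.05 to 0.03 for TF and -0.09 to 0.18 for STEAP1. Then 21 to 22 members rose and 5 to 6 fell. Over the other alternatives 561 member values kept direction and call, 19 gained a call, 8 lost it and 15 turned sign. Samples with the same replicate number did not deviate together (correlations of -0.03, -0.17 and 0.00; 0 of 6 samples correlated best with their own number), and with the replicate block 10601 genes changed in place of 11049, 22 members rose and 5 fell. No probe set has a detection call, which limits what can be said of the dim members.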

Other observations

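Haem synthesis genes, named here for their place in the pathway after their values were seen, did not share a direction. The first 2 enzymes rose, ALAS1, which makes the first precursor, by 1.06 (10.29 to 10.35 in control, 11.32 to 11.41 in SAHA) and ALAD by 1.27 (8.04 to 8.13 and 9.31 to 9.36). UROD and CPOX, which act later, changed by -0.14 and -0.16, and FECH, which inserts the iron, by -0.60 (10.39 to 10.53 and 9.81 to 9.91), each below its control arrays. UROS and PPOX were at 0.04 and -0.02 and were not called. Beside the rise of ferritin light chain, the iron chaperones PCBP1 and PCBP2, which load ferritin, fell by 0.53 and 0.29 on the log2 scale, and FBXL5, which marks iron regulatory protein for breakdown, by 0.37. The mitochondrial iron carriers SLC25A37 and SLC25A28 changed by -0.43 and -0.32. Among genes of iron-sulphur cluster assembly, NFS1 rose by 0.45 and GLRX5 by 0.39 while the scaffold gene ISCU changed by -0.43. GLRX5 and SLC25A37 have 2 probe sets each, and only the value of the brighter is given. Each of these values is the mean of 3 SAHA arrays against 3 control arrays, and limma gave an adjusted p under 0.05 for all but UROS and PPOX.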
